A study of Homo sapiens with 6 samples.

Results

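The transcripts of 10 genes that make, activate, store and burn fatty acids were examined in NCI-N87 cells, an established human gastric carcinoma line that grows as epithelial clusters, after knockdown of SCAMP1. The genes were chosen by name (SREBF1, PPARG, ACLY, ACACA, FASN, ELOVL6, SCD, ACSL1, PLIN2 and CPT1A) as protein-coding entries of the deposited table, and all 10 were found among its 58735 genes, of which 19951 are protein-coding. RNA sequencing covered 6 libraries, 3 of shCtrl cells and 3 of shS1#1 cells, numbered as biological replicates. The shCtrl cells (shNC in the sample labels, genotype Control) had received a control lentivirus, which the study's methods describe as the empty pSIH-H1-puro vector. The shS1#1 cells (shScamp1 in the labels, genotype SCAMP1 Knockdown) had received a lentivirus with 1 short hairpin RNA against SCAMP1, a membrane protein of secretory and endocytic vesicles. Both were stable populations selected in puromycin (2 μg/ml) and harvested, per the labels, before full confluence in serum-containing medium, so the comparison rests on 1 cell line and 1 hairpin, and the labels do not say whether the replicates came from separate infections. P-values therefore measure the spread between these libraries, which may be technical. In such bulk RNA, fewer cells expressing a gene and less RNA per cell cannot be told apart.

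Cells build fatty acids in the cytosol. ATP citrate lyase (ACLY) cuts citrate into acetyl-CoA, acetyl-CoA carboxylase (ACACA) turns that into malonyl-CoA, and fatty acid synthase (FASN) assembles malonyl-CoA into palmitate, which ELOVL6 lengthens and stearoyl-CoA desaturase (SCD) makes monounsaturated. SREBF1 encodes the transcription factor SREBP-1, a well known activator of these enzyme genes, and PPARG encodes a nuclear receptor that drives fat storage in adipocytes and is also expressed in epithelia of the gut. Acyl-CoA synthetase ACSL1 activates fatty acids, PLIN2 coats lipid droplets, and CPT1A, which malonyl-CoA inhibits, admits acyl chains into mitochondria for oxidation.

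Values are FPKM, a fragment count scaled to gene length and library size. The recovered reads per library numbered 15064905 to 15988700 in shCtrl and 14311769 to 14667628 in shS1#1. SCAMP1 was at 12.6, 12.1 and 11.5 FPKM in shCtrl replicates 1 to 3 and at 1.70, 1.37 and 1.99 FPKM in shS1#1 replicates 1 to 3, so that the mean fell by 86.0% (log2 fold change -2.78, SE 0.14, limma adjusted p = 0.000248). A gene was called changed at a limma adjusted p under 0.05 over all 15556 genes tested, and differentially expressed where its log2 fold change also passed 1 in either direction. By the first rule 14.0% of all tested genes were called (8.82% higher and 5.17% lower in shS1#1), by the second 3.16%, and the 3 libraries of each group did not overlap for 41.4%. Among the called genes 1372 were higher and 805 lower with the deposited scaling, against 1138 higher and 1268 lower when reads were scaled by library totals.

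One library stood apart. The median gene of shS1#1 replicate 2 lay 0.299 log2 units from the mean of the other shS1#1 libraries, against 0.208 for replicate 1, 0.146 for replicate 3 and 0.0842 to 0.0996 for the shCtrl libraries, where the means for replicates 1 and 3 include replicate 2. Mitochondrially encoded genes took 9.21% of its reads and 6.09% to 6.78% in the other 5 libraries. Its deviation was related to annotated gene length (Spearman rho 0.22 across 15556 genes, which are not independent replicates), with a median of -0.19 in the shortest and 0.15 in the longest of 3 equal bins of genes. Values without it are therefore given beside those from all libraries for the 10 genes, their relatives and the list genes named. Without it 27.8% of all tested genes were called, 13.2% lower. What set this library apart was not tested.

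All 10 genes passed the filter on low values (a mean of 0.5 FPKM or more). SREBF1 fell and PPARG rose after knockdown, while the enzyme genes and PLIN2 did not pass the test. Thus 2 of 10 were called, 1 in each direction, which is to be read against 14.0% of all genes, and 0 of 10 were differentially expressed, since none had a log2 fold change past 1. At an unadjusted limma p under 0.05 there were 5. The fold changes of the 10 genes ran from -0.39 to 0.43 on the log2 scale with a median of 0.01, and 5 were positive. The median of all tested genes was -0.02. In 6 of 10 genes the groups did not overlap, which is to be read against 41.4% of all genes. Without shS1#1 replicate 2, 7 of 10 were called, 5 lower (SREBF1, ACLY, ACACA, ELOVL6 and SCD) and 2 higher (PPARG and ACSL1). These counts are to be read against 27.8% of all tested genes called and 13.2% lower in that fit. The median of the 10 genes there was -0.12.

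In shCtrl cells the highest of the 10 transcripts were SCD at 162 ± 1.35 FPKM (mean ± SD, n = 3), ACLY at 158 ± 3.58 FPKM and FASN at 139 ± 4.76 FPKM, all above 98.7% or more of the tested genes by the mean of the 6 libraries. ACSL1, CPT1A and SREBF1 followed at 37.5 ± 0.687, 35.4 ± 0.366 and 35.1 ± 1.38 FPKM. The libraries of CPT1A and SREBF1 overlapped, as did those of SCD and ACLY. ACACA (21.5 ± 0.290 FPKM), ELOVL6 (14.5 ± 0.245 FPKM) and PPARG (12.9 ± 0.383 FPKM) were lower, and PLIN2 was lowest at 3.44 ± 0.211 FPKM. In shS1#1 cells ACLY (150 ± 7.88 FPKM), FASN (146 ± 30.8 FPKM) and SCD (134 ± 21.1 FPKM) overlapped each other, and PPARG (17.5 ± 0.952 FPKM) stood above ELOVL6 (12.5 ± 0.222 FPKM).

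**Figure D1:**
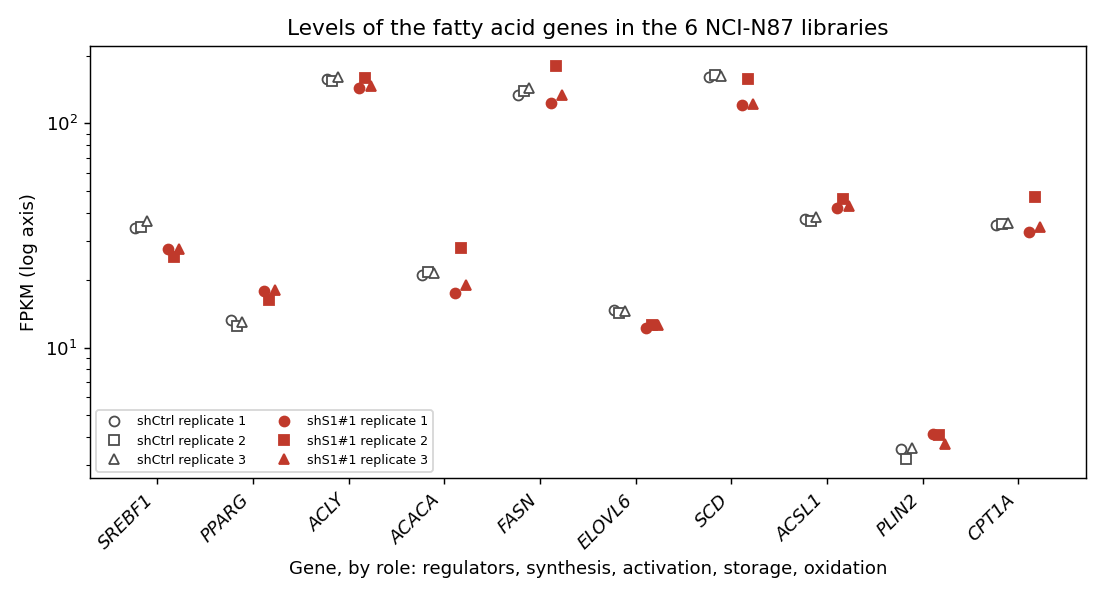
Level of each of the 10 genes in every library, in FPKM on a log axis, with open points for shCtrl and filled points for shS1#1. SCD, ACLY and FASN sit at 134 to 162 FPKM by group mean and PLIN2 at 3.44 and 3.97 FPKM.

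SREBF1 (ENSG00000072310, chr17:17810399-17837002, minus strand, GRCh38) was at 34.1, 34.6 and 36.7 FPKM in shCtrl replicates 1 to 3 and at 27.4, 25.4 and 27.5 FPKM in shS1#1 replicates 1 to 3. All shS1#1 libraries lay below all shCtrl libraries. The mean fell by 23.8% (log2 fold change -0.39, SE 0.07, 95% confidence interval -0.55 to -0.23, limma adjusted p = 0.0140), and without shS1#1 replicate 2 the log2 fold change was -0.35 (adjusted p = 0.00371). The call was lost without any 1 of the shCtrl libraries (adjusted p = 0.0618, 0.0707 and 0.0716 without replicates 1, 2 and 3) and without shS1#1 replicate 3 (adjusted p = 0.0531). SREBF1 overlaps RAI1 on the opposite strand by 1055 bases, and the sources used here do not state whether reads were counted by strand. RAI1 held 1667 to 2098 reads per library, against 2795 to 4632 for SREBF1, and its log2 fold change was 0.15 (limma adjusted p = 0.422).

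SREBF2, which encodes the related factor SREBP-2 of cholesterol genes, was at 70.0 ± 1.96 FPKM in shCtrl and 71.6 ± 10.1 FPKM in shS1#1 (log2 fold change 0.02, limma adjusted p = 0.908), a difference whose sign turned under other scalings and without shS1#1 replicate 2 (-0.09, adjusted p = 0.163). INSIG1, whose protein holds SREBP precursors in the endoplasmic reticulum and whose gene SREBPs activate, was at 11.4 ± 0.367 FPKM and 9.65 ± 0.261 FPKM (log2 fold change -0.23, limma adjusted p = 0.0576), and it was called without shS1#1 replicate 2 (-0.23, adjusted p = 0.0242). Its relative INSIG2 went the other way, from 7.74 ± 0.576 to 9.77 ± 0.936 FPKM (log2 fold change 0.33, limma adjusted p = 0.0779). INSIG2 was also called without shS1#1 replicate 2 (0.41, adjusted p = 0.0118).

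PPARG (ENSG00000132170, chr3:12287368-12434356, plus strand) was at 13.3, 12.5 and 12.9 FPKM in shCtrl and at 18.0, 16.4 and 18.1 FPKM in shS1#1. The groups did not overlap, and shS1#1 replicate 2 was the closest of its group to shCtrl. The mean was 35.4% higher after knockdown (log2 fold change 0.43, SE 0.07, 95% confidence interval 0.27 to 0.60, limma adjusted p = 0.0113), and without that library the log2 fold change was 0.48 (adjusted p = 0.00136). Leaving out a shCtrl library gave adjusted p-values of 0.0539, 0.0671 and 0.0580 (replicates 1, 2 and 3), and leaving out shS1#1 replicate 3 gave 0.0554, so the call was lost there too. The other 2 PPAR genes were not called. PPARA, the receptor best known for switching on fatty acid oxidation, was at 2.83 and 2.91 FPKM (log2 fold change 0.02, limma adjusted p = 0.952, sign turned under other scalings), and the broadly expressed PPARD at 17.7 and 16.7 FPKM (log2 fold change -0.08, adjusted p = 0.473). Leaving out shS1#1 replicate 2 gave -0.15 for PPARA (limma adjusted p = 0.274) and -0.11 for PPARD (adjusted p = 0.264).

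**Figure D2:**
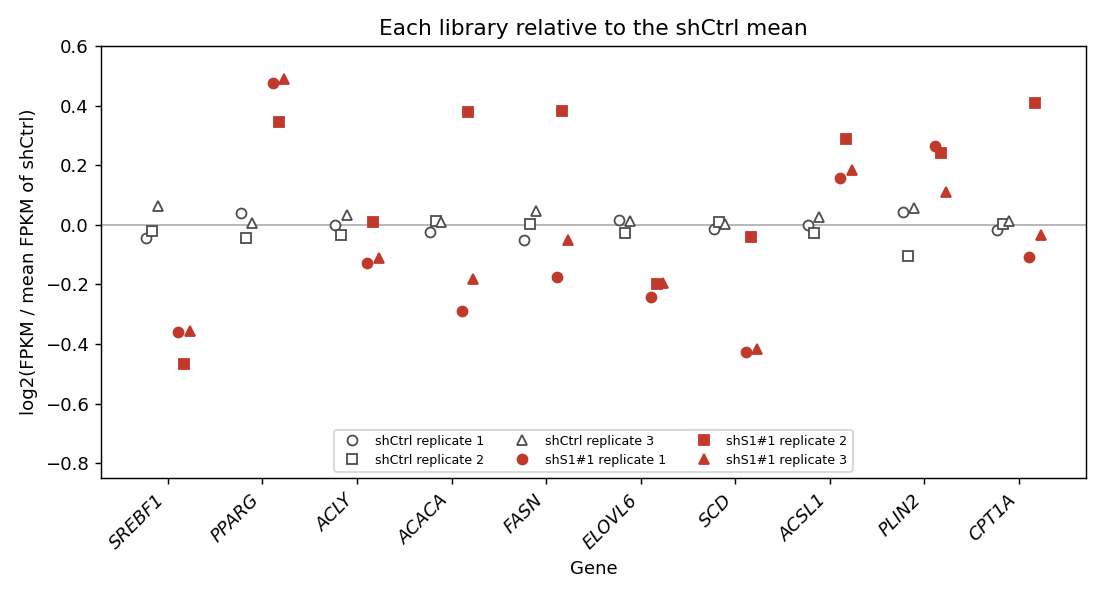
Log2 of each library's FPKM over the shCtrl mean of the same gene, with open points for shCtrl, filled points for shS1#1 and a marker shape for each replicate number. All 3 shS1#1 libraries lie below 0 for SREBF1, ELOVL6 and SCD and above 0 for PPARG, ACSL1 and PLIN2, while for ACACA, FASN and CPT1A replicate 2 lies above 0 and replicates 1 and 3 below it.

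ACLY, at the head of the synthesis pathway, was at 158, 154 and 162 FPKM in shCtrl and at 144, 159 and 146 FPKM in shS1#1. The groups overlapped through shS1#1 replicate 2 (log2 fold change -0.08, SE 0.07, 95% confidence interval -0.25 to 0.09, limma adjusted p = 0.497). Without that library the log2 fold change was -0.12 (adjusted p = 0.0479).

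ACACA, whose product malonyl-CoA commits carbon to fatty acids, was at 21.1, 21.7 and 21.6 FPKM in shCtrl and at 17.6, 27.9 and 18.9 FPKM in shS1#1. The shCtrl libraries lay between the knockdown libraries, with replicate 2 above and replicates 1 and 3 below. The group means were both 21.5 FPKM (log2 fold change -0.03, SE 0.17, 95% confidence interval -0.45 to 0.39, limma adjusted p = 0.921). Without shS1#1 replicate 2 the log2 fold change was -0.23 (adjusted p = 0.0161), so that library decides the call. Its relative ACACB was below the filter, at 0.335 and 0.286 FPKM.

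FASN showed the same high replicate 2. It was at 134, 139 and 144 FPKM in shCtrl and at 123, 181 and 134 FPKM in shS1#1 (log2 fold change 0.05, SE 0.15, 95% confidence interval -0.31 to 0.41, limma adjusted p = 0.843). Replicate 2 was the highest of the 6 libraries and replicate 1 the lowest. Without replicate 2 the log2 fold change was -0.11 (adjusted p = 0.165), so its sign turned and the gene was not called in either fit.

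ELOVL6, which extends palmitate to stearate, varied little between libraries. It was at 14.6, 14.2 and 14.6 FPKM in shCtrl and at 12.3, 12.6 and 12.6 FPKM in shS1#1, without overlap. Its log2 fold change was -0.21 (SE 0.06, 95% confidence interval -0.35 to -0.07, limma adjusted p = 0.0606) with all libraries and -0.22 (adjusted p = 0.0139) without shS1#1 replicate 2. Reads scaled by library totals in place of the deposited scaling also called it (adjusted p = 0.0258). Of its relatives, ELOVL1 was the highest, at 85.1 ± 3.19 and 94.4 ± 12.1 FPKM (log2 fold change 0.14, limma adjusted p = 0.412). ELOVL1 was called higher without shS1#1 replicate 2 (0.25, adjusted p = 0.0151). ELOVL7 (log2 fold change -0.06, adjusted p = 0.746) and ELOVL3 (-0.18, adjusted p = 0.652) were not called in either fit. ELOVL2, ELOVL4 and ELOVL5 stayed below the filter.

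SCD, which places the double bond in stearate and palmitate, was at 161, 164 and 163 FPKM in shCtrl and at 121, 158 and 122 FPKM in shS1#1. All knockdown libraries lay below all controls, replicate 2 only slightly. The log2 fold change was -0.29 (SE 0.12, 95% confidence interval -0.58 to -0.01, limma adjusted p = 0.150) and reached -0.42 without that library (adjusted p = 0.000592). SCDP1, a processed pseudogene of SCD, held at most 1 read in any library. SCD5, the other human stearoyl-CoA desaturase, fell from 6.59 ± 0.123 to 4.63 ± 0.506 FPKM (log2 fold change -0.50, SE 0.09, limma adjusted p = 0.0192).

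The promoters of the 3 genes that were lower in every shS1#1 library are shown because they are the starting point for asking what SREBF1, ELOVL6 and SCD share. Each is the 250 bases before a RefSeq start site in GRCh38.p14, 5′ to 3′ on the gene's strand, with capitals marking matches on either strand to the GC box GGGCGG, the letters bound by the factor SP1, and to the CCAAT box CCAAT, the letters bound by NF-Y. SREBF1 is at chr17:17836987-17837236 on the minus strand, ELOVL6 at chr4:110198616-110198865 on the minus strand and SCD at chr10:100346983-100347232 on the plus strand.
SREBF1: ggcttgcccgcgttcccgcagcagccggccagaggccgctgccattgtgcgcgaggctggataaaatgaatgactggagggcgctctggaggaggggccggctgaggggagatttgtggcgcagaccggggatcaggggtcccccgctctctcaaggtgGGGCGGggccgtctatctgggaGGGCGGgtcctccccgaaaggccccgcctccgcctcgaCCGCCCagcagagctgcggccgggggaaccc
ELOVL6: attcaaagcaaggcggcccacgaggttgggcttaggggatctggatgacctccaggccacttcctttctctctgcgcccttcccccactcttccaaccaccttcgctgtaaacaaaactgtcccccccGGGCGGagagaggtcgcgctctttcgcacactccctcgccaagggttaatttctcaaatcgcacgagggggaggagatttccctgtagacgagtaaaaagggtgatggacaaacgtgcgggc
SCD: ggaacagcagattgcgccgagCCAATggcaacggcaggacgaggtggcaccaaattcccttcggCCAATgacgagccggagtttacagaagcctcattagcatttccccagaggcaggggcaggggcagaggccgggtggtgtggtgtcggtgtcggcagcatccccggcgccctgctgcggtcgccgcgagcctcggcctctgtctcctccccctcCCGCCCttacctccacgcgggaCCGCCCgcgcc

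The SREBF1 window held 3 GC boxes, the ELOVL6 window 1, and the SCD window 2 GC boxes and 2 CCAAT boxes. None of these 3 windows held the letters TCACNCCAC, a core of the sterol regulatory element at which SREBPs bind. RefSeq entries were given for 9 of the 10 genes, all but FASN, with 21 start sites. At 1 or more of their start sites, 7 of the 9 genes held a GC box, 5 a CCAAT box, 1 the E-box CACGTG (PLIN2) and 1 the sterol element core (ACSL1). Among all 35116 promoter windows of the same length, the shares were 42.6%, 32.0%, 6.34% and 0.883%. Genes with several start sites had more windows to match, so these shares are not set against the gene counts by a test.

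ACSL1, which activates long-chain fatty acids at the endoplasmic reticulum and outer mitochondrial membrane, was at 37.6, 36.8 and 38.2 FPKM in shCtrl and at 41.9, 45.8 and 42.6 FPKM in shS1#1. Each knockdown library lay above each control, and replicate 2 was the highest. The log2 fold change was 0.21 (SE 0.06, 95% confidence interval 0.06 to 0.36, limma adjusted p = 0.0797) and 0.17 without shS1#1 replicate 2 (adjusted p = 0.0164). Its relative ACSL3, a synthetase of the endoplasmic reticulum and lipid droplets, fell from 30.6 ± 0.926 to 24.9 ± 1.43 FPKM (log2 fold change -0.29, SE 0.07, limma adjusted p = 0.0394). ACSL5, a mitochondrial relative, was at 7.60 and 8.82 FPKM (log2 fold change 0.21, adjusted p = 0.0744) and ACSL4, which favours arachidonic acid, at 4.35 and 3.61 FPKM (log2 fold change -0.28, adjusted p = 0.222). Both were called when shS1#1 replicate 2 was left out, ACSL5 higher (log2 fold change 0.20, limma adjusted p = 0.0356) and ACSL4 lower (-0.41, adjusted p = 0.0222). ACSL6 stayed below the filter.

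PLIN2, the lipid droplet coat protein of most non-adipose cells, was at 3.55, 3.20 and 3.58 FPKM in shCtrl and at 4.13, 4.06 and 3.71 FPKM in shS1#1. The groups did not overlap, but the gap between the lowest knockdown and the highest control library was small, and the gene rested on 271 to 307 reads per library. The log2 fold change was 0.20 (SE 0.09, 95% confidence interval -0.01 to 0.41, limma adjusted p = 0.174), with 0.18 (adjusted p = 0.179) without shS1#1 replicate 2. PLIN3, the other droplet coat gene above the filter, was at 13.4 and 16.4 FPKM (log2 fold change 0.29, adjusted p = 0.136, and 0.19 with adjusted p = 0.108 without that library). The adipocyte coat gene PLIN1, with PLIN4 and PLIN5, stayed below the filter.

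CPT1A, the gate to mitochondrial oxidation, was at 35.0, 35.5 and 35.8 FPKM in shCtrl and at 32.8, 47.0 and 34.6 FPKM in shS1#1. Replicate 2 was the highest of all 6 libraries and replicates 1 and 3 were below every control. The log2 fold change was 0.09 (SE 0.14, 95% confidence interval -0.25 to 0.42, limma adjusted p = 0.703) and -0.07 without that library (adjusted p = 0.217). The neuronal and muscle forms were scarce. CPT1C was at 1.08 and 1.33 FPKM (log2 fold change 0.28, adjusted p = 0.338, and 0.37 with adjusted p = 0.190 without that library), and CPT1B at 0.276 and 0.328 FPKM was below the filter.

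**Figure D3:**
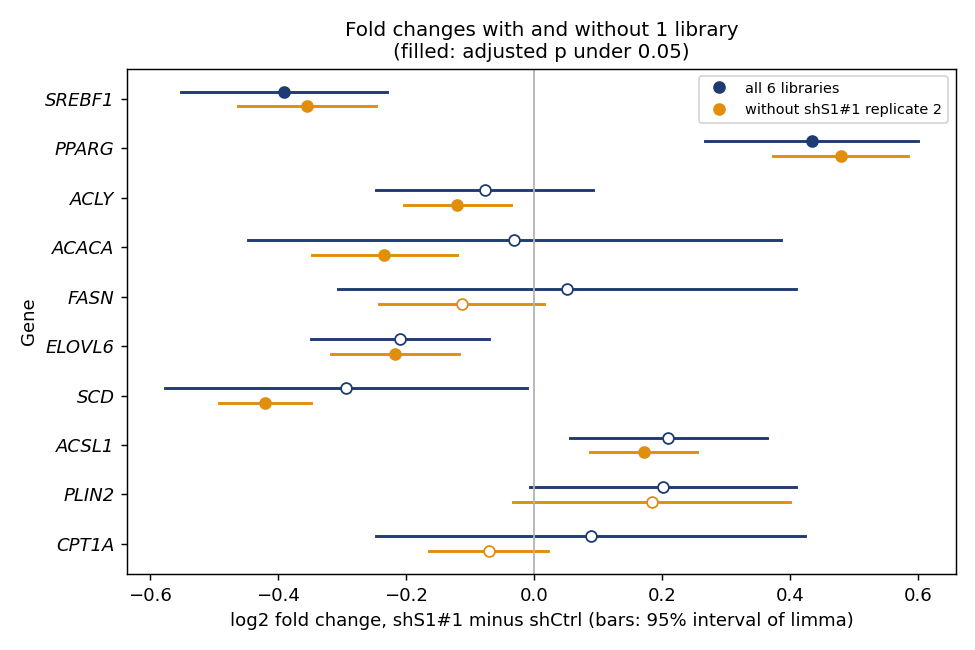
Log2 fold change of shS1#1 against shCtrl for each gene with its 95% confidence interval from limma, with all 6 libraries and without shS1#1 replicate 2. The intervals of ACACA, FASN, SCD and CPT1A are the widest with all libraries and narrow without replicate 2, while the values of SREBF1, PPARG, ACLY, ELOVL6, ACSL1 and PLIN2 shift less than theirs.

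Replicate 2 of shS1#1 lay above the mean of replicates 1 and 3 by 0.61 log2 units for ACACA, 0.49 for FASN, 0.48 for CPT1A and 0.38 for SCD. Deviations as large were common in that library. In absolute size, 79.2% of all tested genes deviated less than ACACA, 71.2% less than FASN, 70.0% less than CPT1A and 60.3% less than SCD. The deviation was 0.13 for ACLY, 0.12 for ACSL1, 0.05 for PLIN2 and 0.02 for ELOVL6, and it was -0.11 for SREBF1 and -0.14 for PPARG. With length and GC trends removed from every library, an alternative chosen after the data were seen, 4 of the 10 genes were called. That fit called 18.9% of all genes tested in it.

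Other genes of the same pathways were taken from 7 lists that hold none of the 10 genes, and some genes stand on more than 1 list. In fatty acid synthesis and desaturation, 14 of 20 listed genes were tested, 1 rose and 2 fell, against 14.0% of all tested genes called (8.82% higher and 5.17% lower), and the median log2 fold change was -0.17. ME1, the malic enzyme that supplies NADPH for synthesis, rose from 21.1 ± 0.527 to 27.7 ± 1.05 FPKM (log2 fold change 0.39, SE 0.06, limma adjusted p = 0.0114). ACSS2, which makes acetyl-CoA from acetate, fell from 6.01 ± 0.308 to 4.70 ± 0.411 FPKM (log2 fold change -0.35, SE 0.09, adjusted p = 0.0482), and the other gene that fell was SCD5, above. In uptake and activation, 11 of 19 were tested, 0 rose (1 at an unadjusted limma p under 0.05) and 2 fell, ACSL3 and SLC27A2, with a median of -0.28. SLC27A2, a fatty acid transport protein with synthetase activity, was at 11.6 ± 0.781 and 8.04 ± 0.876 FPKM (log2 fold change -0.53, SE 0.10, adjusted p = 0.0204). Leaving out shS1#1 replicate 2 gave 8 calls in the synthesis list (2 higher, 6 lower) and 7 in the uptake list (1 higher, 6 lower), against 27.8% of all tested genes called and 13.2% lower in that fit.

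Storage and breakdown of lipid were covered by separate lists. Of 27 glycerolipid and droplet genes 17 were tested, 1 rose and 0 fell (2 lower at an unadjusted limma p under 0.05), with a median log2 fold change of -0.06. That gene was GPAT3, which starts triglyceride synthesis by acylating glycerol 3-phosphate. It was at 2.40, 2.49 and 2.28 FPKM in shCtrl and at 4.70, 4.32 and 5.24 FPKM in shS1#1 (log2 fold change 0.96, SE 0.10, limma adjusted p = 0.00227). Of 9 lipolysis genes 7 were tested, 3 rose and 0 fell (also 0 lower at an unadjusted p under 0.05), with a median of 0.48, against 8.82% of all genes that rose. ABHD5, the coactivator of adipose triglyceride lipase, was at 1.57, 1.81 and 1.78 FPKM in shCtrl and at 3.08, 3.63 and 3.06 FPKM in shS1#1 (log2 fold change 0.88, SE 0.11, adjusted p = 0.00504). MGLL, which splits monoglycerides, went from 2.94 ± 0.198 to 4.34 ± 0.557 FPKM (log2 fold change 0.54, SE 0.11, adjusted p = 0.0285), and LIPG, a secreted lipase that acts mainly on phospholipids of lipoproteins, from 0.727 ± 0.0876 to 1.39 ± 0.0427 FPKM (log2 fold change 0.86, SE 0.16, adjusted p = 0.0173). PNPLA2, the adipose triglyceride lipase itself, was at 13.0 ± 0.775 and 18.4 ± 3.87 FPKM (log2 fold change 0.48, adjusted p = 0.106), and it was called without shS1#1 replicate 2 (0.66, adjusted p = 0.00171). With shS1#1 replicate 2 left out, 3 glycerolipid genes (2 higher, 1 lower) and 5 lipolysis genes (5 higher) were called, against 27.8% of all genes.

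In mitochondrial and peroxisomal beta-oxidation, 25 of 27 genes were tested, 1 rose and 2 fell, against 14.0% of all genes called, with a median log2 fold change of -0.17. HADH, which oxidises short and medium hydroxyacyl-CoA in mitochondria, was at 5.34, 5.42 and 5.52 FPKM in shCtrl and at 3.91, 3.29 and 3.48 FPKM in shS1#1 (log2 fold change -0.60, SE 0.09, limma adjusted p = 0.00808). ECI2, an isomerase for unsaturated chains, fell from 2.75 ± 0.194 to 1.80 ± 0.166 FPKM (log2 fold change -0.59, SE 0.11, adjusted p = 0.0187), and the peroxisomal thiolase ACAA1 rose from 4.35 ± 0.0793 to 5.66 ± 0.513 FPKM (log2 fold change 0.37, SE 0.09, adjusted p = 0.0409). Without shS1#1 replicate 2 the list had 10 called genes, 4 higher and 6 lower, against 27.8% of all genes, and a median near 0.

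Among 20 regulators of fatty acid genes 18 were tested, 0 rose (4 at an unadjusted limma p under 0.05) and 2 fell, with a median log2 fold change of 0.02. Over all tested genes 14.0% were called (8.82% higher and 5.17% lower). MLXIPL, which encodes ChREBP, the glucose-responsive activator of synthesis genes, was at 2.71, 3.19 and 3.02 FPKM in shCtrl and at 1.17, 0.804 and 1.08 FPKM in shS1#1 (log2 fold change -1.47, SE 0.16, limma adjusted p = 0.00281), from 53 to 256 reads per library. It was differentially expressed by the second rule, except with a pseudocount of 1, where its log2 fold change was -0.98. PPARGC1B, a coactivator of nuclear receptors and of SREBP-1, was at 2.45, 2.51 and 2.46 FPKM and at 1.16, 1.73 and 1.13 FPKM (log2 fold change -0.86, SE 0.17, adjusted p = 0.0237). Without shS1#1 replicate 2, 8 regulators were called, 4 in each direction, against 27.8% of all genes. Of 13 genes known to be induced by PPARs only 3 were tested. ANGPTL4, an inhibitor of lipoprotein lipase, rose from 0.663 ± 0.134 to 1.42 ± 0.230 FPKM (log2 fold change 1.00, SE 0.21, adjusted p = 0.0292) on 20 to 61 reads per library. It was the only 1 of the 3 called, against 14.0% of all tested genes. At 1.003 it also narrowly passed the second rule, as did 3.16% of all tested genes. Over 21 alternatives its log2 fold change ran from 0.54 to 1.18. None of the 3 fell, also at an unadjusted p under 0.05. Below the filter, where genes were not tested, PLIN4 was at 0.527 and 0.233 FPKM (16 to 59 reads), without overlap. PLIN5 was likewise lower, at 0.203 and 0.102 FPKM (5 to 20 reads). FABP4 went the other way, from 0.0151 to 0.133 FPKM (0 to 4 reads). The groups overlapped for PLIN1, CD36 and CIDEC of the same list, and 41.4% of all tested genes had no overlap. When shS1#1 replicate 2 was left out, all 3 tested genes were called, 2 higher and 1 lower, against 27.8% of all genes.

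Of these 15 list genes, MLXIPL, GPAT3, ABHD5 and HADH were called whichever library was left out. Without shS1#1 replicate 2 all 15 were called with the same sign, with log2 fold changes of -1.33 for MLXIPL, 1.02 for GPAT3, 0.80 for ABHD5, -0.54 for HADH, -1.05 for PPARGC1B, 1.09 for ANGPTL4, 0.88 for LIPG, 0.44 for MGLL, -0.52 for ECI2, 0.44 for ACAA1, 0.37 for ME1, -0.42 for SCD5, -0.42 for ACSS2, -0.61 for SLC27A2 and -0.32 for ACSL3. The other 11 lost the limma call, with the same sign, when single libraries were left out. ME1 and SCD5 lost it without any 1 of the shCtrl libraries (adjusted p up to 0.0684 and 0.0900). ECI2 and MGLL lost it there and without shS1#1 replicate 3 (up to 0.0917 and 0.118). LIPG lost it without shCtrl replicates 2 or 3 and without shS1#1 replicates 1 or 3 (up to 0.0761). ACSS2, SLC27A2, ACSL3, ACAA1, PPARGC1B and ANGPTL4 lost it without any library other than shS1#1 replicate 2 (up to 0.180, 0.0948, 0.161, 0.149, 0.101 and 0.106).

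**Figure D4:**
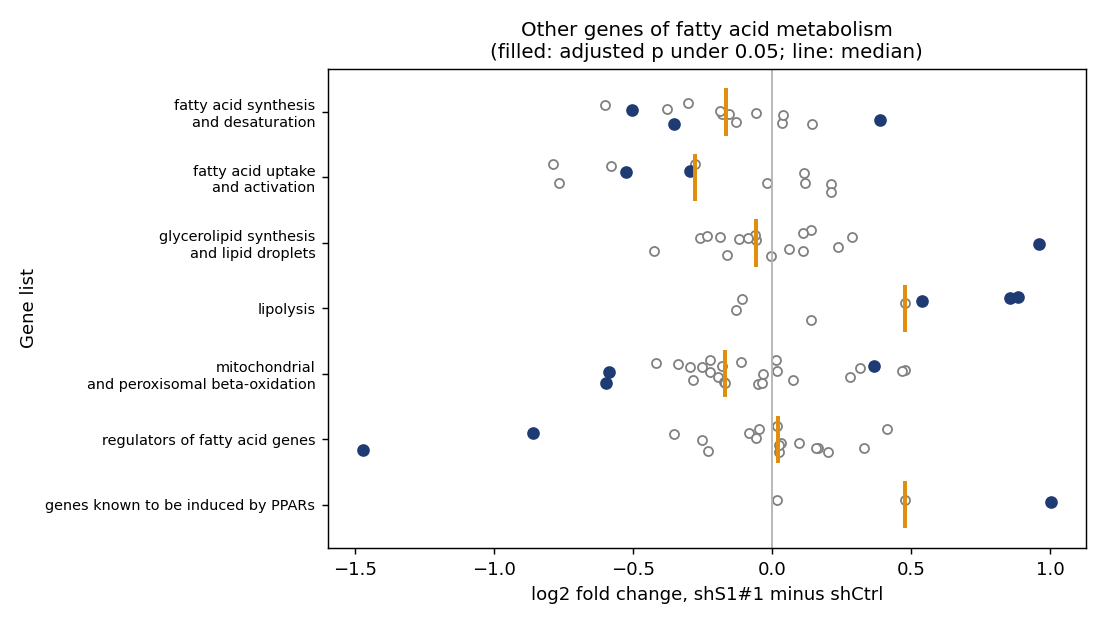
Log2 fold change of shS1#1 against shCtrl for every tested gene of the 7 wider lists, with 1 point per gene and called genes filled. MLXIPL is the lowest called point at -1.47, and GPAT3, ABHD5, LIPG and ANGPTL4 lie between 0.86 and 1.00.

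Markers of adipocytes, fibroblasts and leukocytes were low in both groups, and those of hepatocytes were not, through 1 gene. Of the adipocyte markers ADIPOQ, LEP and CIDEA were at 0 in all libraries, and the summed level of the list of 7 was 2.27 to 2.42 FPKM in shCtrl and 2.14 to 2.48 FPKM in shS1#1, with 1 gene tested (LIPE) and 0 called. Fibroblast markers (6 genes, with COL1A2, LUM and DCN at 0) summed to 0.533 to 0.689 and 0.487 to 0.773 FPKM, and leukocyte markers (5 genes, with MS4A1 at 0) to 0.367 to 0.656 and 0.403 to 0.644 FPKM. The hepatocyte list of 5, with APOB and TTR at 0, summed to 9.30 to 9.76 and 18.9 to 21.1 FPKM, and SERPINA1, the 1 gene tested there, made up most of it and rose (log2 fold change 1.08). The epithelial carcinoma markers summed to 5578 to 5863 FPKM in shCtrl and 9436 to 10452 FPKM in shS1#1, with 6 of 8 called higher, against 8.82% of all tested genes. Their part in the results above was not tested.

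Within 500 kb of the 10 genes lay 118 tested protein-coding genes, of which 16 rose and 7 fell (19.5% called, median log2 fold change -0.02). In the same fit 14.0% of all tested genes and 16.7% of the 11529 tested protein-coding genes were called, so the share was near the background. The largest changes were in ACER2 near PLIN2 (2.01), NOTUM near FASN (-1.73) and TMEM40 near PPARG (1.64). By gene, the called neighbours were 9 of 26 for ACLY (7 higher), 5 of 34 for FASN, 3 of 14 for SREBF1 and 2 of 5 for PLIN2. PPARG, ACACA, SCD and CPT1A had 1 each. No tested neighbour of ELOVL6 or ACSL1 was called, out of 4 and 7.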

How the data were processed

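RNA sequencing of 3 shCtrl and 3 shS1#1 NCI-N87 libraries was analysed from the table of FPKM values that the authors deposited, which is scaled to gene length and to library size. The submitters' processing notes name hg38, HISAT2 2.0.5, featureCounts 1.5.0-p3 and DESeq2 1.20.0. FPKM multiplied by gene length was a whole multiple of 1 value per library for 100% of entries (within 0.01 of a read), which gave the reads, and the deposited values already hold a median-of-ratios library factor. The 10 genes and all lists were chosen with earlier results of these data known.

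Genes averaging 0.5 FPKM or more were fitted with limma 3.58.1 in R 4.3.3 on log2(FPKM + 0.1) with a mean-variance trend, no covariate and Benjamini-Hochberg adjustment over 15556 genes. Fold changes on that scale understate those of low genes. With 3 against 3 libraries an exact permutation test of 1 gene cannot go below p = 0.1. Named genes were the 10 genes, their relatives, SCAMP1, the called list genes averaging 1 FPKM or more (up to 6 per list) and up to 3 neighbours. INSIG1, INSIG2, PNPLA2 and FABP4 were added after their values were seen. Coordinates are those of GENCODE 29 and promoters those of RefSeq.

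Alternatives covered the pseudocount, filter, scaling, variance trend, biotypes, voom on recovered reads, replicate block and each library left out. Leaving out both libraries numbered 2, total read scaling without mitochondrial genes, and removal of length and GC trends were chosen after seeing the data. The fit was tested on simulated data with 196 or 197 changed genes tested. Of these 0% were called at a log2 change of 0.3, 3.57% at 0.5 and 82.1% at 1. Far fewer genes changed there than were called here, which makes the adjusted p stricter, so these shares do not give the recovery in the real fit. The limit on false calls was restated as a number because too few calls were made for a share.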

Additional observations from a re-analysis of the deposited data

How the results depend on the processing

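Of the 10 genes, 2 were called in the fit reported and 0 to 7 when 1 library was left out, with 0 without any shCtrl library or without shS1#1 replicate 3, 2 without shS1#1 replicate 1 and 7 without shS1#1 replicate 2. Without both libraries numbered 2 and with gene length and GC trends removed 4 were called, and 3 under total read scaling. Those fits called 17.7%, 18.9% and 15.5% of all tested genes, in that order. SREBF1 kept its sign with log2 fold changes of -0.47 to -0.35 and PPARG with 0.36 to 0.48 over 21 alternatives, each losing the call in 5. MLXIPL, GPAT3, ABHD5 and HADH were called under all 21. Over all genes 2177 were called, 808 to 4330 with 1 library left out, and 492 were differentially expressed, 248 with a pseudocount of 1. Higher genes were 63.0% of calls, 47.3% under total read scaling.

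Same-numbered libraries did not deviate together (correlations -0.04, 0.03 and 0.07), and not every library correlated best with its own number. Over so few libraries this cannot show whether same-numbered libraries were handled together. The fit with the replicate block called 958 genes and 0 of the 10 by limma, 3 at an unadjusted p under 0.05 (adjusted p = 0.0630 for SREBF1 and 0.0505 for PPARG), with 0 synthesis, 1 lipolysis, 1 oxidation, 1 regulator and 0 PPAR-induced genes.

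With 1 library left out, calls numbered 0 to 8 in synthesis (3 in the fit reported), 0 to 7 in uptake (2), 1 to 3 in glycerolipids (1), 1 to 5 in lipolysis (3), 1 to 10 in oxidation (3), 1 to 8 in regulators (2) and 0 to 3 in PPAR-induced genes (1). Synthesis calls were 5 under total read scaling, with or without mitochondrial genes, quantile normalization and removal of length and GC trends. Without both libraries numbered 2 the calls were 7 in synthesis, 2 in glycerolipids, 5 in oxidation and 3 in PPAR-induced genes. Uptake calls were 1 without a filter or without the variance trend, and 4 with voom or trends removed. Glycerolipid calls were 2 at a minimum of 10 reads and under total read scaling, with or without mitochondrial genes. Oxidation calls were 5 with protein-coding genes alone and with voom. Regulator calls were 1 without a filter, 4 at 1 FPKM, with protein-coding genes alone and with voom, and 6 with trends removed. PPAR-induced calls were 0 without a filter, 3 at 10 reads, and 2 with protein-coding genes alone, voom or trends removed.

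Signs turned for genes that were near 0. FASN was at -0.023 under total read scaling, -0.015 with mitochondrial genes left out of that scaling, -0.11 without both libraries numbered 2, and -0.11 to 0.16 with 1 library left out. That range was -0.23 to 0.10 for ACACA and -0.071 to 0.19 for CPT1A, which was at -0.070 without both libraries numbered 2. SREBF2 and PPARA were at -0.0043 and -0.0084 under TPM scaling, -0.052 and -0.055 under total read scaling, -0.044 and -0.047 without mitochondrial genes, -0.10 and -0.096 without both libraries numbered 2, and -0.019 and -0.088 with trends removed. With 1 library left out they ranged from -0.089 to 0.10 and from -0.15 to 0.12. The cause was not tested.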

Other observations

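The ratio of each transcript to FASN within a library was taken after the data were seen, and it is given as values with no test. SCD stood at 1.20, 1.17 and 1.13 times the FPKM level of FASN in shCtrl replicates 1 to 3 and at 0.982, 0.872 and 0.909 times in shS1#1 replicates 1 to 3, so the groups did not overlap and replicate 2 was the lowest. CPT1A stayed between 0.249 and 0.267 times FASN in all 6 libraries. SREBF1 was at 0.254, 0.249 and 0.256 times FASN in shCtrl and at 0.223, 0.140 and 0.205 times in shS1#1. FASN, the divisor, was itself at 181 FPKM in shS1#1 replicate 2, against 123 and 134 FPKM in replicates 1 and 3. SCD was the highest of its group in that library, at 158 FPKM against 121 and 122 FPKM. SREBF1 was at 25.4 FPKM there, against 27.4 and 27.5 FPKM. The low ratios of replicate 2 are therefore not measures of how far SCD or SREBF1 fell.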
